A study of Mus musculus with 4 samples.

Results

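The comparison of fully grown oocytes with blastocysts covers the start and the end of the stages profiled in this study. It asks which families of repeats hold the reads of each stage. The comparison uses 2 of the 4 samples of the series, and 6 of its 11 sequencing runs, taken by their stage labels. Both stages came from F1 (C57BL/6J X CBA/H) mice. The oocyte sample is labelled as fully grown oocytes, and the blastocyst sample is labelled with an age of 92 h. All samples of the series carry the same tissue label, embryo, the oocytes included, and no treatment or genetic change is given for either stage. The labels do not say how many oocytes or embryos went into a sample or whether they were pooled. The files name repeat families and no genes, so the stage labels could not be checked against marker genes.

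RNA was profiled by nanoCAGE, a method for small amounts of RNA designed to select capped molecules and sequence from their 5′ ends. A read is thus meant to mark where a transcript starts, but whether each read did so was not tested. This includes the ribosomal RNA repeats, which held 8.52 to 44.9% of a run's counts. Each stage is 1 sample with 3 runs, numbered 1.1, 1.2 and 2. Nothing says that the runs came from separate pools of cells, so they were taken as repeat runs of 1 sample, no p-value was computed, and no difference below has a replicate check. The runs show the spread of the measurement only. With 1 sample of each stage, stage and sample cannot be told apart.

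Repeats make up a large part of the mouse genome. LINEs such as L1 are retrotransposons that encode their own reverse transcriptase. SINEs are short elements that borrow that machinery: Alu, which in the mouse is the B1 element, descends from the RNA of the signal recognition particle, B2 from a transfer RNA, and B4 joins parts of both kinds. LTR elements descend from retroviruses. Their long terminal repeats carry promoters, and those of the MaLR family, which holds the MT and ORR1 elements, are known for driving many transcripts of the growing oocyte. ERVK holds the IAP and ETn elements and ERVL holds MERVL, an element known for its activity in early embryos. DNA transposons of the mouse are old and no longer mobile. The oocyte stores RNA for the first divisions, and this RNA is degraded as the embryo starts its own transcription, well before it becomes a blastocyst. This is background from general knowledge, and the table of counts does not separate these subfamilies.

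The oocyte runs 1.1, 1.2 and 2 held 563012, 1919263 and 377629 counts in the table of repeat families, and the blastocyst runs held 41528, 36922 and 93980. Values are shares, the percent of a run's counts over all 47 families, and the 3 runs of a stage were averaged with equal weight. A share per cell or per molecule cannot be had from them: a lower share can come from fewer transcripts of that family or from more of the others. Fewer cells of a type and less RNA per cell cannot be told apart either. Exact (Clopper-Pearson) 95% intervals of shares reached at most 17.08% of the share to either side for the 15 families with at least 1% in a stage. They cover counting error only. The names of the reads show that oocyte runs 1.1 and 2 and blastocyst run 1.2 were sequenced in 1 instrument run, and the values of these 3 runs are given as the ratio within the shared sequencing run.

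A family was called higher or lower in the blastocyst by 2 conditions: a difference of 2-fold or more between the means, and no overlap between the runs of the 2 stages. By this rule 13 of 47 families were higher (27.7%) and 3 were lower (6.38%). Without blastocyst run 1.2 these numbers were 22 and 5, and without oocyte run 1.1 they were 13 and 8. Among the 36 families whose counts summed to 100 or more in the 6 runs, 6 were higher (16.7%) and 3 were lower (8.33%). The higher families with enough counts were L1, L2, B4, Tc2, DNA and snRNA, and the lower ones were MaLR, Low_complexity and scRNA. The median family of those 36 had a log2 ratio of blastocyst to oocyte of 0.58, so that ratios above 1 were the more common ones among families. With median-of-ratios scaling, which divides by the typical family instead of by the total, that median was -0.16 and 10 families were higher and 5 lower. Directions given below for single families are therefore stated with the value under this scaling where it changes the call or the direction.

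The LINE class took a larger part of the blastocyst counts. It held 10.4, 8.88 and 11.9% of the oocyte runs 1.1, 1.2 and 2, and 39.4, 31.1 and 36.7% of the blastocyst runs. The ratio of means was 3.44, and the lowest blastocyst run stood far above the highest oocyte run. SINEs held 6.78, 9.85 and 10.4% in the oocyte and 15.2, 18.9 and 16.1% in the blastocyst. These runs did not overlap either, at a ratio of 1.85, below the 2-fold limit. LTR elements held 20.1, 51.0 and 48.7% in the oocyte and 22.1, 19.1 and 31.0% in the blastocyst. Oocyte run 1.1 lay within the blastocyst range, so that the class did not pass the rule on all counts (ratio 0.602).

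**Figure D1:**
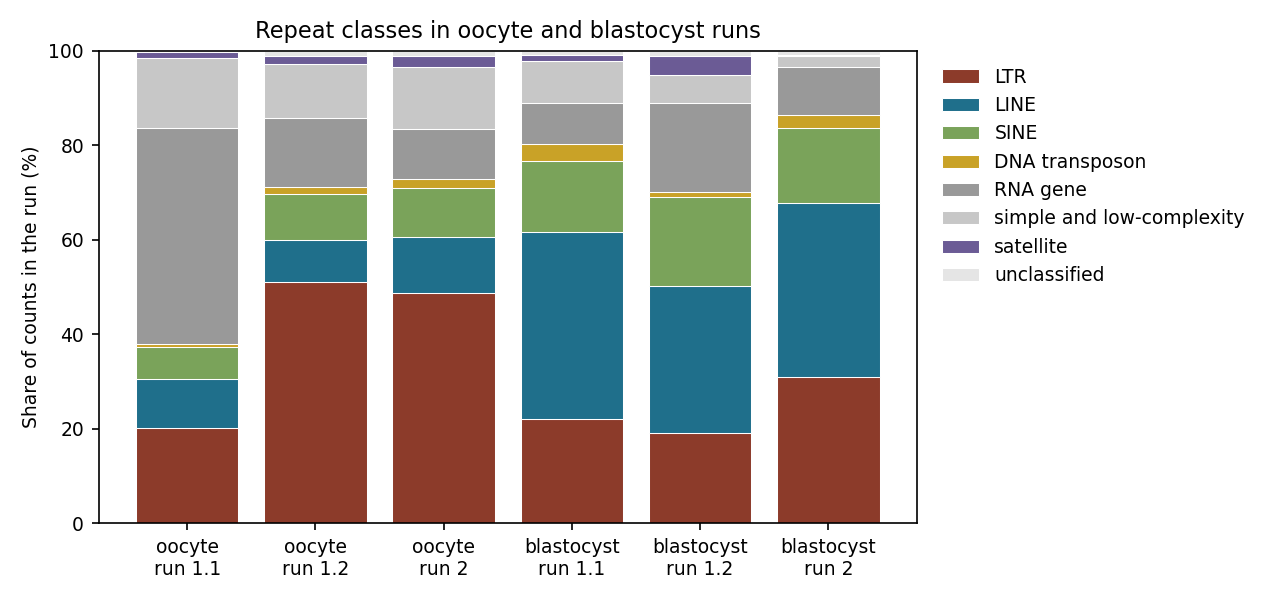
Stacked bars give the percent of all counts in each repeat class (vertical axis) for the 3 runs of the oocyte and the 3 runs of the blastocyst (horizontal axis). LINE fills 31.1 to 39.4% of the blastocyst bars against 8.88 to 11.9% of the oocyte bars, and RNA genes fill 45.8% of oocyte run 1.1.

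Oocyte run 1.1 differed from the other oocyte runs in its RNA gene share. RNA genes held 45.8, 14.5 and 10.7% of the oocyte runs and 8.80, 18.7 and 10.2% of the blastocyst runs. Transposons, the LINE, SINE, LTR and DNA transposon families together, held 37.9, 71.1 and 72.8% in the oocyte and 80.2, 70.2 and 86.4% in the blastocyst. When shares were taken of transposon counts only, the LTR class held 53.0, 71.7 and 66.8% of the oocyte runs and 27.6, 27.1 and 35.9% of the blastocyst runs. On that scale it was lower in the blastocyst, 2.11-fold by the means. LINEs held 27.5, 12.5 and 16.4% of oocyte transposon counts and 49.2, 44.3 and 42.5% of blastocyst transposon counts. In both stages, LTR and LINE elements together made up most of the transposon counts, with LTR elements first in every oocyte run and LINEs first in every blastocyst run.

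Among the 34 transposon families on transposon counts, 9 were higher (26.5%) and 1 was lower (2.94%). The higher ones numbered 15 without blastocyst run 1.2, and the lower ones 5 without oocyte run 1.1 and 2 without blastocyst run 1.1. Over all runs, the lower one was MaLR. Of the higher ones L1, Tc2 and DNA had at least 100 counts, and the other 6 had fewer.

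MaLR was the largest family of the oocyte transposons and the only LTR family that was lower. It held 12.9, 38.3 and 36.2% of all counts of the oocyte runs 1.1, 1.2 and 2, and 10.2, 6.71 and 9.45% of the blastocyst runs. The lowest oocyte run and the highest blastocyst run were close, and the other 2 oocyte runs were far above. The means differed 3.32-fold, and the blastocyst-to-oocyte ratio was 0.273 within the shared sequencing run. Of transposon counts, MaLR held 34.1, 53.9 and 49.7% in the oocyte and 12.7, 9.57 and 10.9% in the blastocyst. On that scale, which leaves out all families that are not transposons, the lowest oocyte run was well clear of the blastocyst runs, and the means differed 4.15-fold.

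The other LTR families moved unequally. ERVK held 5.61, 9.11 and 9.41% of all counts in the oocyte and 7.05, 7.29 and 10.6% in the blastocyst, and the runs overlapped with a ratio of 1.04. Of transposon counts its ratio was 0.778, with the runs of the stages apart (oocyte lowest 12.8%, blastocyst highest 12.3%), and under median-of-ratios scaling it was 0.699. Its direction thus depended on the scale, and it did not pass the rule on either.

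ERV1, a family that includes gammaretrovirus-like elements, held 1.16, 1.24 and 1.40% in the oocyte and 2.06, 3.37 and 1.80% in the blastocyst. Its runs did not overlap, and its ratio of 1.90 was just under the limit. It passed within the shared sequencing run (2.63) and without blastocyst run 1.1, blastocyst run 2 or oocyte run 2 (2.01 to 2.14). ERVL held 0.403, 2.30 and 1.60% in the oocyte and 2.79, 1.63 and 9.02% in the blastocyst. Its ratio of means was 3.12, but blastocyst run 1.2 lay inside the oocyte range and run 2 made up most of the blastocyst mean. Without blastocyst run 2 the ratio was 1.54. ERVL passed without blastocyst run 1.2 (4.11) and without oocyte run 1.2 (4.47).

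**Figure D2:**
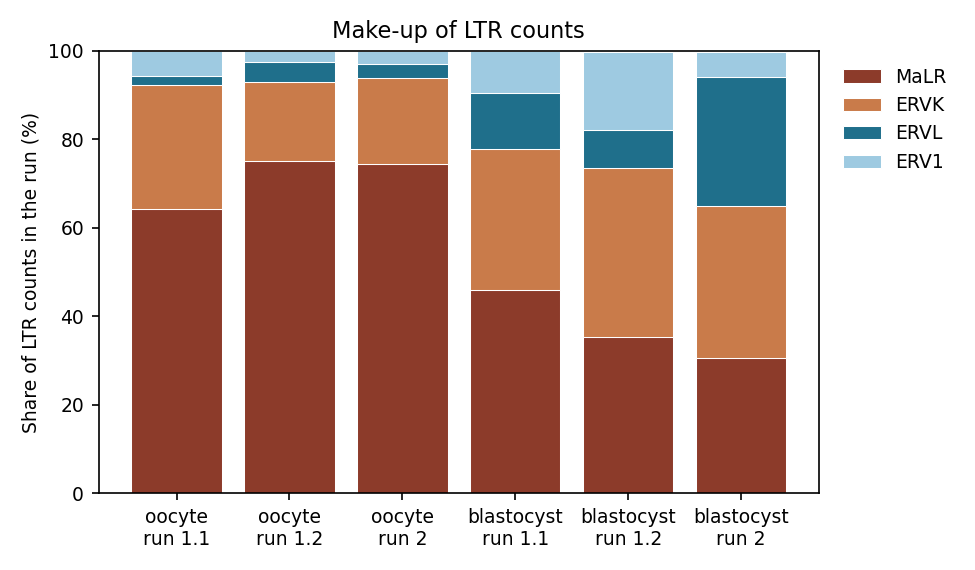
Stacked bars give the percent of LTR counts in MaLR, ERVK, ERVL and ERV1 (vertical axis, from 0) for each run of the oocyte and the blastocyst (horizontal axis). The MaLR part fills 64.3 to 75.1% of the oocyte bars and 30.5 to 46.0% of the blastocyst bars, and ERVL reaches 29.1% in blastocyst run 2.

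Within the LTR class, where the other classes drop out of the total, the runs of the stages separated for all 4 large families. MaLR made up 64.3, 75.1 and 74.4% of LTR counts in the oocyte and 46.0, 35.3 and 30.5% in the blastocyst, 1.91-fold less by the means. Every blastocyst run was below every oocyte run. ERVK was 27.9, 17.9 and 19.3% in the oocyte and 31.9, 38.3 and 34.4% in the blastocyst, a ratio of 1.61. ERVL was 2.00, 4.51 and 3.30% in the oocyte and 12.6, 8.56 and 29.1% in the blastocyst, 5.13-fold higher by the means. ERV1 was 5.78, 2.42 and 2.88% in the oocyte and 9.33, 17.7 and 5.82% in the blastocyst, 2.96-fold higher. For ERV1 the highest oocyte run and the lowest blastocyst run were nearly level.

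Another 4 LTR families passed the rule for higher on very few counts. ERV1? had 6, 0 and 1 counts in the oocyte runs and 3, 6 and 22 in the blastocyst runs. ERVL? had 2, 2 and 1 against 2, 1 and 10, and Gypsy? had 0, 6 and 1 against 1, 3 and 11. The family named LTR had 1 count in every one of the 6 runs, so that its pass follows from the smaller totals of the blastocyst runs alone. These families are named after their values were seen and no size is given for them. Where a run had 0 counts, 3 counts of its total set the share that could have been missed, which is 0.000533% in oocyte run 1.1 and 0.000156% in oocyte run 1.2.

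L1, the family of the active mouse LINE, had the largest share of all families in each blastocyst run. It held 9.43, 8.05 and 10.8% of all counts in the oocyte and 37.3, 29.4 and 32.3% in the blastocyst. No runs of the 2 stages were close, and the means differed 3.50-fold. The ratio was 2.90 within the shared sequencing run and 2.47 on transposon counts, where L1 held 24.8, 11.3 and 14.9% in the oocyte and 46.6, 41.9 and 37.4% in the blastocyst. Under median-of-ratios scaling it was 2.20.

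L2, an old LINE family that is no longer mobile, held 0.896, 0.495 and 0.516% in the oocyte and 1.77, 1.62 and 4.09% in the blastocyst. The means differed 3.92-fold, and blastocyst run 2 was the highest by far. L2 did not pass on transposon counts, where its ratio of 2.46 came with overlapping runs, nor under median-of-ratios scaling, with a ratio of 2.13. The ratio of L2 to L1 counts was 0.0950, 0.0614 and 0.0477 in the oocyte and 0.0473, 0.0551 and 0.127 in the blastocyst. These ratios overlapped, so that a change of L2 apart from L1 was not seen.

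Within the LINE class L1 made up 90.5, 90.7 and 90.8% of counts in the oocyte and 94.6, 94.5 and 88.0% in the blastocyst. The class was L1 in both stages for the most part. The small family CR1, also old and immobile, was 0.726, 2.72 and 3.14% of LINE counts in the oocyte and 0.684, 0.174 and 0.679% in the blastocyst. It took 4.28-fold less of the class by the means, although oocyte run 1.1 was nearly level with 2 blastocyst runs. Of all counts CR1 overlapped between stages, with a ratio of 0.829.

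All 3 main rodent SINE families had higher shares in each blastocyst run than in any oocyte run. B4 held 2.05, 2.91 and 2.84% in the oocyte and 5.28, 7.38 and 5.17% in the blastocyst, a 2.29-fold difference of means. Alu held 1.61, 2.67 and 2.66% in the oocyte and 3.63, 5.61 and 4.06% in the blastocyst, with a ratio of 1.91. Alu passed within the shared sequencing run (2.63) and without blastocyst run 1.1, oocyte run 1.2 or oocyte run 2 (2.07 to 2.09). B2 held 2.07, 2.64 and 3.01% in the oocyte and 3.94, 4.77 and 4.20% in the blastocyst, with a ratio of 1.67. B4 passed the rule on all counts, but its ratio was 1.72 on transposon counts and 1.60 under median-of-ratios scaling, below the limit. MIR, an older SINE found in all mammals, held 0.979, 1.07 and 1.13% in the oocyte and 1.70, 0.967 and 2.05% in the blastocyst, and its runs overlapped. Its ratio was 1.49, and 0.899 under median-of-ratios scaling, so that its direction depended on the scale.

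**Figure D3:**
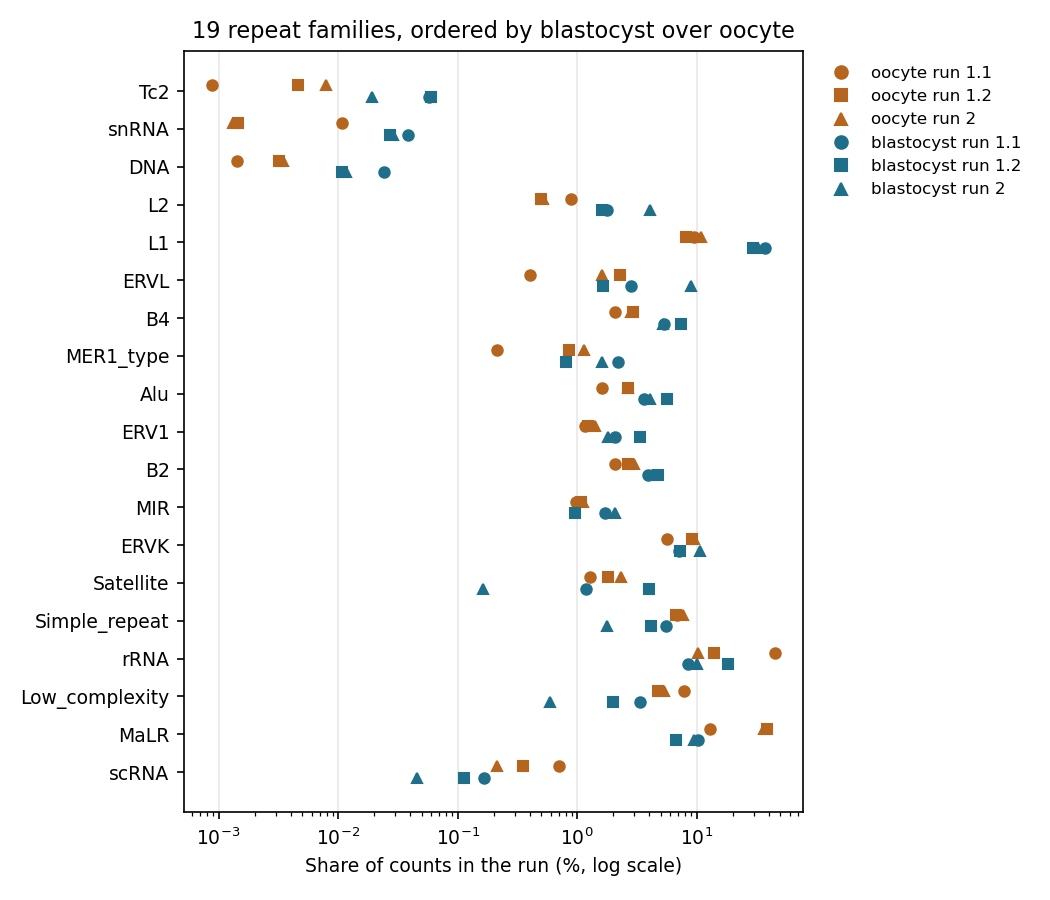
Points give the percent of all counts (horizontal log axis) of the 19 named families in each of the 6 runs, coloured by stage, with families ordered by the ratio of blastocyst to oocyte. Tc2, snRNA, DNA, L2, L1, B4, Alu, ERV1 and B2 have all blastocyst points to the right of the oocyte points, while MaLR, Low_complexity, Simple_repeat and scRNA have them to the left.

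Within the SINE class the proportions of B4 and B2 shifted by less than 2-fold. B4 made up 30.3, 29.5 and 27.2% of SINE counts in the oocyte and 34.9, 39.1 and 32.2% in the blastocyst. B2 made up 30.5, 26.8 and 28.96% in the oocyte and 26.0, 25.3 and 26.2% in the blastocyst. The runs were apart in both cases, at less than 2-fold. The ratio of B4 to B2 counts was 0.995, 1.103 and 0.941 in the oocyte and 1.34, 1.55 and 1.23 in the blastocyst. The runs overlapped for Alu, MIR, ID and the family named SINE. ID ranged from 1.102 to 7.09% of the class in the oocyte and from 0.832 to 3.88% in the blastocyst.

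DNA transposons held 0.636, 1.41 and 1.83% in the oocyte and 3.46, 1.15 and 2.66% in the blastocyst, and the runs overlapped. MER1_type, the largest of these families, held 0.212, 0.860 and 1.14% in the oocyte and 2.17, 0.807 and 1.61% in the blastocyst. The ratio of 2.08 did not pass because blastocyst run 1.2 lay inside the oocyte range, and MER1_type passed without that run (2.57). Of the 15 families, 4 were higher and none was lower, against 13 higher (27.7%) and 3 lower (6.38%) of all 47 families. These 4 are all rare families.

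Tc2 had 5, 88 and 30 counts in the oocyte runs and 24, 22 and 18 in the far smaller blastocyst runs. Pooled over runs, its share was 8.63 times as high in the blastocyst (exact 95% interval 6.28 to 11.8). Its ratio of run means was 10.2, and 16.6 without oocyte run 2. The family named DNA, whose elements have no finer class, had 8, 61 and 13 counts against 10, 4 and 11, a pooled ratio of 5.06 (3.10 to 8.00). The intervals cover counting error only. The other 2, MER1_type? and TcMar, had under 100 counts. Within the class, hAT went the other way: it was 1.48, 3.79 and 4.51% of DNA transposon counts in the oocyte and 1.39, 0.704 and 0.802% in the blastocyst, 3.37-fold lower by the means. Oocyte run 1.1 was nearly level with blastocyst run 1.1. Of all counts hAT overlapped between stages, with a ratio of 0.5335. It had 43 blastocyst counts in all.

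The families that are not transposons were lower or overlapped, with the exception of snRNA and Y-chromosome. Ribosomal RNA, the family rRNA, held 44.9, 13.99 and 10.3% in the oocyte and 8.52, 18.4 and 10.01% in the blastocyst. The ranges of the stages overlapped, and oocyte run 1.1 stood apart from the other 5 runs. The ratio of blastocyst to oocyte was 0.533, and 1.014 without oocyte run 1.1. Without blastocyst run 1.2 it was 0.402, and rRNA then passed as lower. Low_complexity, stretches of biased base composition, held 7.84, 4.74 and 5.36% in the oocyte and 3.35, 1.99 and 0.595% in the blastocyst, 3.02-fold lower by the means. The blastocyst-to-oocyte ratio was 0.331, and 0.216 without blastocyst run 1.1. Simple_repeat, short tandem motifs, held 6.86, 6.72 and 7.61% in the oocyte and 5.55, 4.10 and 1.79% in the blastocyst. These runs did not overlap, at a ratio of 0.540 that is short of the limit. Simple_repeat passed as lower under median-of-ratios scaling (0.351), with pooled counts (0.465), with runs 1.1 and 1.2 averaged first (0.459) and without blastocyst run 1.1 (0.417). Blastocyst run 2 was lowest for both families.

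Small cytoplasmic RNA repeats, the family scRNA, held 0.705, 0.354 and 0.213% in the oocyte and 0.166, 0.114 and 0.0458% in the blastocyst. They were 3.903-fold lower by the means, with the lowest oocyte run just above the highest blastocyst run. The repeats of small nuclear RNAs, which take part in splicing, had 61, 28 and 5 counts in the oocyte and 16, 10 and 27 in the blastocyst. Their pooled ratio was 9.35 (exact 95% interval 6.55 to 13.2). The ratio of run means was 6.93, and 22.6 without oocyte run 1.1. Under median-of-ratios scaling snRNA did not pass, with a ratio of run means of 3.19.

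Satellite repeats, the tandem arrays of centromeric regions, held 1.28, 1.81 and 2.33% in the oocyte and 1.18, 3.96 and 0.164% in the blastocyst. The blastocyst runs spread more widely than the stages differed, and the ratio was 0.977 over all runs and 2.191 within the shared sequencing run. Without blastocyst run 1.2 it was 0.372, and Satellite then passed as lower. The family Y-chromosome had 0, 8 and 1 counts in the oocyte and 21, 4 and 50 in the blastocyst. It is singled out after its values were seen and has under 100 counts, so no size is given. Whether the sex of the embryos plays a part was not tested. Oocytes carry no Y chromosome, and reads placed on chromosome Y numbered 61, 138 and 47 in the oocyte runs. In the blastocyst runs they numbered 40, 5 and 64.

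Ratios of 2 families within a run do not depend on the total. Of the 105 pairs among the 15 families with at least 1%, 42 changed at least 2-fold with the runs apart (40.0%). MaLR was lower against 10 of its 14 partners and higher against none. L1 was higher against 8 and lower against none, and B4 and L2 were each higher against 6. Low_complexity was lower against 10 and Simple_repeat against 9. ERVK was higher against 2 and lower against 3.

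MaLR had 1.37, 4.76 and 3.35 counts for each L1 count in the oocyte runs, and in the blastocyst 0.272, 0.228 and 0.293. The blastocyst runs were nearly alike, every oocyte run had more MaLR than L1, and every blastocyst run had more L1 than MaLR. The mean ratio was 11.94 times as high in the oocyte. Within the shared sequencing run the blastocyst value was 0.0968 of the oocyte value. This held for oocyte run 1.1 too, with its high RNA gene share.

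ERVL had 0.0311, 0.0601 and 0.0443 counts for each MaLR count in the oocyte and 0.275, 0.243 and 0.954 in the blastocyst. This was 10.87-fold higher in the blastocyst by the means, 6.44-fold within the shared sequencing run and 5.73-fold without blastocyst run 2. Against L1, ERVL overlapped between the stages. ERVK had 0.434, 0.238 and 0.260 counts per MaLR count in the oocyte and 0.694, 1.09 and 1.13 in the blastocyst. L1 had 1.68, 0.884 and 1.15 counts per ERVK count in the oocyte and 5.29, 4.03 and 3.03 in the blastocyst. By these ratios ERVK lost ground against L1 and gained it against MaLR.

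The read files give single placements on mm9 with strand and a score whose scale is not stated, and they do not name the repeat. They held 272199, 1375332 and 474089 lines in the oocyte, and 40922, 33473 and 95702 lines in the blastocyst. The table held 2.07, 1.40 and 0.797 counts per line in the oocyte and 1.02, 1.103 and 0.982 in the blastocyst, so that positions and families do not rest on the same set of reads 1 to 1.

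The score differed between the blastocyst runs. Its median was 50, 53 and 35 in the oocyte runs and 16, 32 and 15 in the blastocyst runs 1.1, 1.2 and 2. A score of at least 20 was given to 85.3, 88.6 and 82.1% of oocyte lines, and to 4.41, 88.8 and 7.55% of blastocyst lines. Blastocyst run 1.2, the one sequenced together with 2 oocyte runs, was like the oocyte in score, and the other 2 blastocyst runs stood apart. Its part in the results on families was not tested, since the table of counts holds no score.

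**Figure D4:**
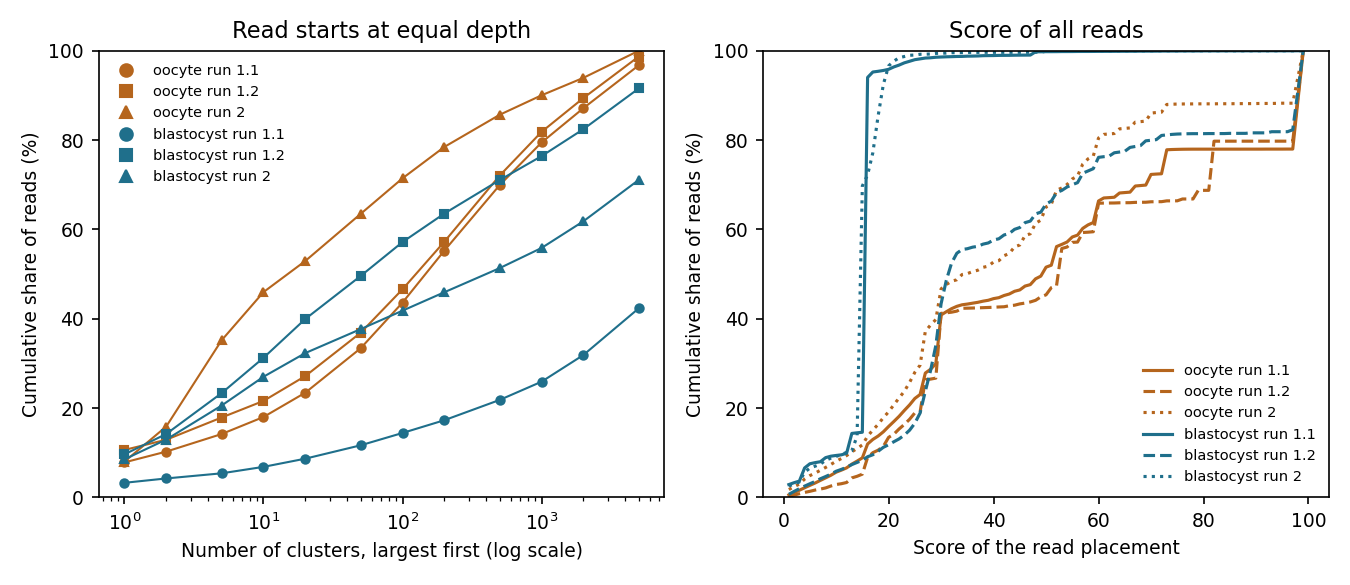
The plot of read starts gives the cumulative percent of reads (vertical axis) held by the largest clusters (horizontal log axis) at equal depth, and the plot of scores gives the cumulative percent of reads at or below each deposited score, with a marker or line style for each of the 6 runs. Blastocyst run 1.1 lies lowest in the plot of read starts, with 14.4% of reads in its 100 largest clusters against 43.6 to 71.4% in the oocyte runs, and the scores of blastocyst runs 1.1 and 2 are nearly all below 20.

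Reads of the blastocyst were spread over more positions. The start of a read is its 5′ base on its strand, and starts on one strand at most 20 bp apart were joined to clusters over the 6 runs. With each run thinned to 33473 lines, the oocyte runs had 8937, 8387 and 6423 distinct starts and the blastocyst runs 25780, 9185 and 16842. They fell into 6091, 5431 and 4028 clusters in the oocyte and 24301, 7825 and 14676 in the blastocyst. Every blastocyst run was above every oocyte run in both counts. The difference was largest in the 2 runs with low scores. In the shared sequencing run, where scores are alike, starts were joined over its runs only. There the 2 oocyte runs had a mean of 5123 clusters, and the 1 blastocyst run had 7833. With only scores of at least 20, at 1806 lines a run, the means of all runs were 691 for the oocyte and 841 for the blastocyst. At that depth with all scores they were 756 and 1155.

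Starts with a single read held 17.7, 16.0 and 13.0% of the oocyte reads and 69.5, 20.5 and 43.8% of the blastocyst reads at equal depth. Clusters of at least 20 reads numbered 281, 276 and 165 in the oocyte and 70, 154 and 102 in the blastocyst. They held 61.0, 62.5 and 76.7% of oocyte reads and 13.0, 61.2 and 41.9% of blastocyst reads. Blastocyst run 1.2 again lay close to the oocyte runs. Inside such clusters the most used base held a median of 69.2, 70.9 and 69.2% of reads in the oocyte and 66.7, 87.0 and 65.6% in the blastocyst. In the median cluster of every run, 1 base thus held most of the reads.

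Few clusters were seen in both stages. At equal depth the oocyte runs had 12647 clusters together and the blastocyst runs 45045, and 424 were in both, which is 3.35% of the oocyte and 0.941% of the blastocyst clusters. Of clusters with at least 10 reads over a stage, 119 of 1134 in the oocyte (10.5%) and 132 of 630 in the blastocyst (21.0%) had a read in the other stage. The 424 shared clusters held 20.5, 26.5 and 57.2% of the oocyte reads and 10.7, 31.0 and 26.7% of the blastocyst reads. The means were 34.71 and 22.78%. Without the densest 10 kb described below, clusters in both stages held a mean of 24.24% of oocyte and 13.22% of blastocyst reads. Within a stage, 239 oocyte and 197 blastocyst clusters were in all 3 runs. That is a stricter count than a read in any run of each stage, so the 2 counts cannot be compared. Of the oocyte clusters with no blastocyst read, 9727 were in 1 run, 2342 in 2 and 154 in 3. Of the blastocyst clusters with no oocyte read, 43275 were in 1 run, 1246 in 2 and 100 in 3. A cluster missed at this depth is not shown to be absent from a stage.

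The overlap of runs, the percent of reads that fall in the same clusters in the same proportion, was 68.0% between oocyte runs 1.1 and 1.2 and 17 and 17.99% between either and oocyte run 2. The blastocyst runs overlapped by 16.0% (1.1 with 1.2), 6.80% (1.1 with 2) and 10.6% (1.2 with 2). Between the stages the overlap was 3.76 to 19.02%, with a mean of 8.29% over 9 pairs. The highest value between stages, 19.02% for oocyte run 2 with blastocyst run 1.2, exceeded the overlap of oocyte run 2 with its own stage. Those 2 runs were sequenced together with oocyte run 1.1, which overlapped blastocyst run 1.2 by 9.085%. Every run also has reads at the densest locus, described below. Why this pair was the highest was not tested. Without that locus, oocyte run 2 overlapped blastocyst run 1.2 by 7.27%, and oocyte runs 1.1 and 1.2 by 8.13 and 9.23%. Every pair overlapped less without it. Pairs between the stages then overlapped by 1.25 to 7.27%, and pairs within a stage by 4.32 to 65.85%.

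**Figure D5:**
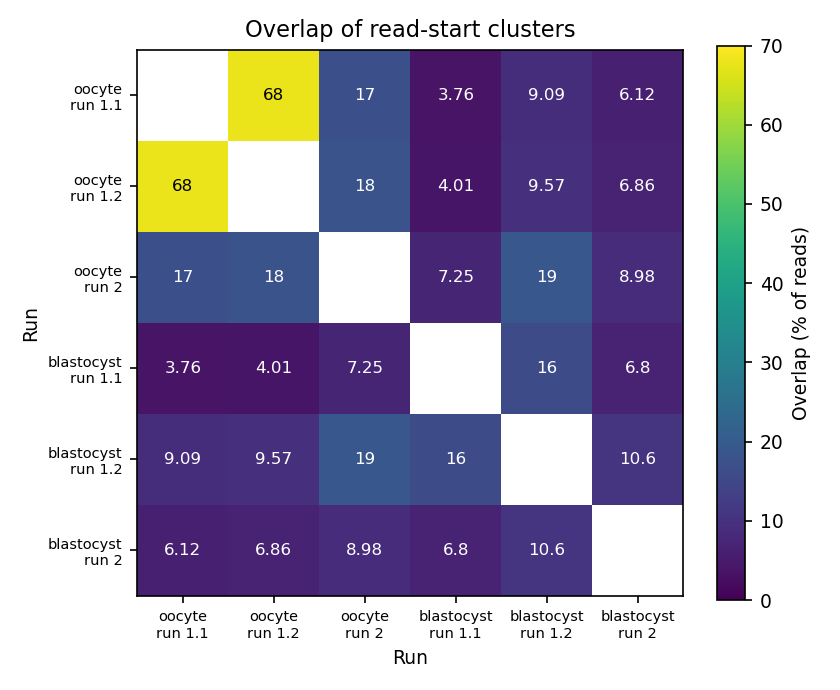
Each cell gives the percent of reads of 2 runs that fall in the same clusters in the same proportion, at equal depth, with the 6 runs on both axes. Oocyte runs 1.1 and 1.2 share 68.0%, and all other pairs lie between 3.76 and 19.02%.

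Runs 1.1 and 1.2 thus resembled each other more than either resembled run 2 in both stages, so that the 3 runs of a stage are not 3 equal repeats. Clusters with reads in all 3 oocyte runs and no blastocyst run numbered 154, clusters in all 3 blastocyst runs and no oocyte run 100, and clusters in all 6 runs 40. The oocyte number was 2356 without oocyte run 2 and 235 without oocyte run 1.2. The blastocyst number was 1013 without blastocyst run 2, 277 without run 1.2 and 257 without run 1.1.

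The densest 10 kb of the 6 runs, chr17:39980000-39989999 (mm9), held 9.98, 13.6 and 17.02% of the oocyte lines and 4.59, 14.5 and 4.43% of the blastocyst lines. The largest oocyte cluster lay there on the minus strand, at chr17:39984051-39985163, with 7.83, 10.9 and 7.81% of lines in the oocyte and 0.965, 4.57 and 2.89% in the blastocyst. All oocyte runs were above all blastocyst runs. The next one, at chr17:39983385-39983667 on the minus strand, held 1.43, 1.72 and 7.69% in the oocyte and 3.23, 9.64 and 1.31% in the blastocyst. It ranked first in the blastocyst, and its runs overlapped. No annotation of mm9 was used here, so the genes and repeats at these positions are not named.

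The other 3 of the 5 largest oocyte clusters were set by oocyte run 2. The cluster at chr1:124253746-124253798 on the plus strand held 0.243, 0.534 and 7.62% in the oocyte and 0.178, 1.22 and 0.513% in the blastocyst. The cluster at chr11:108873031-108873407 on the plus strand held 0.134, 0.305 and 6.02% against 0.0953, 0.577 and 0.401%. The cluster at chr13:97960499-97960565 on the plus strand held 0.330, 0.347 and 5.76% against 0.0562, 0.242 and 0.133%. Only for the last were all oocyte runs above all blastocyst runs.

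The other 3 of the 5 largest blastocyst clusters came from 1 run each and spanned only a few bases. The cluster at chr5:88140004-88140006 on the plus strand held 0.00244, 0.00598 and 8.40% in the blastocyst runs, against 0, 0 and 4 reads in the oocyte runs. The cluster at chr13:94350969-94350973 on the plus strand held 4.49% of blastocyst run 2 and had 3 and 5 reads in the other blastocyst runs. The cluster at chr12:100066739-100066741 on the minus strand held 0.0513, 3.95 and 0% of the blastocyst runs and had no oocyte read. Each was thus high in 1 of the 3 blastocyst runs and near 0 in the other 2.

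The clusters named here as seen throughout one stage and not in the other were smaller. Clusters on chromosome 18 were left out of this pick. Of the rest, the 3 per stage with the highest share in their lowest run were picked after the data were seen. Their absence from the other stage is part of how they were picked. In the oocyte, the cluster at chr6:47504149-47504206 on the plus strand held 0.248, 0.182 and 0.708%, and had no read in any blastocyst run. The cluster at chr12:85009079-85009205 on the minus strand held 0.181, 0.174 and 0.284%. The cluster at chr1:88253138-88253227 on the plus strand held 0.110, 0.0926 and 0.0774%. The blastocyst runs are the shallower ones, so that a low level there could be missed.

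In the blastocyst, the cluster at chr17:61892084-61892096 on the plus strand had 9, 14 and 8 reads. The cluster at chr13:52165956-52165959 on the minus strand had 22, 6 and 6 reads, and the one at chr16:76463273-76463279 on the minus strand had 3, 2 and 45. By the way they were picked, none had a read in the oocyte runs, which are far deeper. Their median scores were 16, 16 and 15, and those of the 3 oocyte clusters were 82, 52 and 27. The 3 of the blastocyst had from 2 to 45 reads in a run, and the 3 of the oocyte had from 299 to 3354.

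Reads on the plus strand made up 44.7, 41.7 and 56.0% of the oocyte and 46.8, 37.4 and 59.8% of the blastocyst. The runs numbered 2 were the highest in both stages. Of distinct starts, each counted once, 50.1, 49.9 and 49.4% were on the plus strand in the oocyte and 49.9, 48.8 and 49.5% in the blastocyst. The runs lay closer together by starts than by reads.

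Of 22 chromosomes, the mitochondrial genome included, the runs of the stages did not overlap for 4 by reads (18.2%) and for 4 by distinct starts (18.2%). By reads, chromosome 11 was lower in the blastocyst and chromosomes 9, 14 and 19 were higher. By distinct starts, chromosomes 11 and 17 were lower and chromosomes 3 and 14 were higher. Chromosome 11 held 8.31, 7.18 and 9.41% of the oocyte reads and 4.56, 6.32 and 3.77% of the blastocyst reads. Chromosome 14 held 2.67, 2.34 and 2.40% of reads in the oocyte and 4.40, 5.40 and 4.05% in the blastocyst. These are the chromosomes apart by both measures. The runs of the stages overlapped for the X chromosome, the Y chromosome and the mitochondrial genome.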

How the data were processed

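The members and lists of this comparison were chosen with earlier results of these data known. NanoCAGE reads of 1 oocyte and 1 blastocyst sample were used, with 3 runs each. The authors deposited counts per repeat family for each run, per the file headers, and read placements with a score of unstated scale. Per the submitters' processing notes the build was mm9 and CASAVA was used. Aligner, source of the repeat families and handling of multi-mapping reads were not given in the sources used here, so how often a read was counted is unknown. If reads were counted more than once, the exact intervals are too narrow. Reads were amplified and carry no molecular identifier, so they are not independent.

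Counts were divided by the run total over 47 families, or over 34 transposon families. Families were put in 8 classes from general knowledge of repeat names. A call needed a 2-fold ratio of run means and runs apart. A size was given for families with at least 100 counts. Named were families with at least 1% in a stage, and called families with at least 100 counts, 19 in all, and of clusters the 5 largest of each stage and the 3 largest over both. Starts were joined within 20 bp, at 33473 lines a run (random seed 20). The scripts were tested on simulated data. Python 3.11.15, pandas 2.3.3, numpy 2.4.6, scipy 1.17.1 and matplotlib 3.10.9 were used. The alternatives were other totals, median-of-ratios scaling, pooled counts, leaving out runs, the shared sequencing run, scores, joining distances and depth. The reference at hand was of another build, so no sequence or annotation was joined.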

Additional observations from a re-analysis of the deposited data

How the results depend on the processing

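L1, MaLR and the ratios of MaLR to L1 and of ERVL to MaLR kept direction and call under all alternatives tried. Leaving out 1 run at a time gave ratios of 3.26 to 3.78 for L1 and 0.236 to 0.357 for MaLR. The families higher in the blastocyst, 13 on all counts, were 6 with at least 100 counts, 22 with pooled counts and 20 with runs 1.1 and 1.2 averaged first, an alternative chosen after seeing the data. They were 13 to 22 when 1 run was left out, highest without blastocyst run 1.2. The families lower, 3 on all counts, were 1 on transposon counts (where the other 2, Low_complexity and scRNA, are not among the families), 5 under median-of-ratios scaling, 7 with pooled counts, 7 with runs averaged first and 10 in the shared sequencing run. They were 3 to 8 when 1 run was left out, highest without oocyte run 1.1. Of transposon counts, the higher families, 9, were 3 with at least 100 counts, 16 pooled and 9 to 15 when 1 run was left out, highest without blastocyst run 1.2. The lower ones, 1, were 5 pooled, 11 in the shared sequencing run, 4 with runs averaged first and 1 to 5 when 1 run was left out, highest without oocyte run 1.1. Pooling asks for no runs to be apart, and averaging, leaving out a run or using the shared sequencing run leaves fewer to be apart, so that a pass is easier. The LTR class ratio was 0.473 on transposon counts and 0.421 under median-of-ratios scaling, both called, and 0.483 to 0.699 when 1 run was left out. It was called without oocyte run 1.1. Satellite reversed to 2.191 in the shared sequencing run and was called lower, at 0.372, without blastocyst run 1.2. The cause was not tested.

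Clusters at equal depth, 5183 in the oocyte and 15601 in the blastocyst by the mean of runs, were 691 and 841 with scores of at least 20. They were 756 and 1155 at that depth with all scores, and 32423 and 24065 without thinning, both chosen after seeing the data. Without thinning the runs differ in depth, and the oocyte runs are the deeper ones. The cause of the differences between these settings was not tested. Clusters of all oocyte runs only, all blastocyst runs only and all 6 runs were 26, 1 and 9 with scores of at least 20, 16, 5 and 7 at that depth with all scores, and 1242, 99 and 94 without thinning. Leaving out 1 run gave 157 to 2356 for oocyte only, and 101 to 1013 for blastocyst only. Low depth of the blastocyst runs limits all statements on absent clusters and on families under 100 counts. No paired analysis was possible because the run numbers belong to repeat runs of 1 sample per stage and no test was computed.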
